A study of Rattus norvegicus with 8 samples.

Results

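The AP-1 and Egr1 group of immediate early genes was examined in neonatal rat ventricular cardiomyocytes (NRVCMs), the contractile cells of the newborn rat ventricle kept in primary culture. The genes were chosen by name, as Fos, Fosb, Fosl2, Jun, Junb, Jund, Egr1, Atf3, Btg2 and Ier2. Of these 10, 9 were among the 12784 gene symbols of the deposited RNA-seq table, and Ier2 was not analysed here. One group of 4 libraries came from NRVCMs transduced with an adenovirus that carries HectD3, an E3 ubiquitin ligase. The other 4 came from NRVCMs transduced with an adenovirus for LacZ, the bacterial β-galactosidase used as the control. All cells had 24 h of culture with serum before the virus, which then acted for 72 h in medium low in serum. The HectD3 virus drives its insert from the CMV promoter, which is active in most cell types and not specific to cardiomyocytes. The strain is uncertain, since the methods say Wistar and the reporting summary says Sprague Dawley. The sources call the 4 libraries of a group biological replicates without saying whether each was a separate isolation, so p-values measure the spread between these samples alone.

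Immediate early genes are transcribed within minutes of a stimulus, from factors already present in the cell, and most of their mRNAs are short-lived. Proteins of the Fos and Jun families pair through leucine zippers to form AP-1, which binds DNA at sites of the form TGANTCA with C or G at N. Egr1 is a zinc finger factor that binds GC-rich sites. In cardiomyocytes these genes are known for their quick response to stretch and to hypertrophic agonists such as phenylephrine and endothelin. The comparison asked whether their steady level differed after days of HectD3 overexpression.

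Promoter windows of 300 bases, from 250 before to 50 after the annotated start, were taken from RefSeq (build GRCr8) for 7 of the 10 genes. Shown are those of Egr1, Btg2 and Jund, chosen by the 95% interval for the difference between the viruses and by motif matches. Their intervals lay above 0, that of Btg2 only from 0.00069, and their windows held matches to the motifs searched. All 3 are read 5′ to 3′ on the strand of the gene, with matches in capitals.
Egr1: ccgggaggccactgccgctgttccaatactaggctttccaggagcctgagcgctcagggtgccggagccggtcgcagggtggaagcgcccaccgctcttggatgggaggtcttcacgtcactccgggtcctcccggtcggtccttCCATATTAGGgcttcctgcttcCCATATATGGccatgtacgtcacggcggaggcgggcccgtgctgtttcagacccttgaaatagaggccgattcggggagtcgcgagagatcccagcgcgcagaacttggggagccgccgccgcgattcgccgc
Btg2: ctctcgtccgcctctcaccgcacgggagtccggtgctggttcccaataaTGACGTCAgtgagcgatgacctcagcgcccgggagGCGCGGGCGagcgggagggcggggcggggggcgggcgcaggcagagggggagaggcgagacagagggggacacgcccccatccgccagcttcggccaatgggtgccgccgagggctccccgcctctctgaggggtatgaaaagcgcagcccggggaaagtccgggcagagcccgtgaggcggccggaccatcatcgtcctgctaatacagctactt
Jund: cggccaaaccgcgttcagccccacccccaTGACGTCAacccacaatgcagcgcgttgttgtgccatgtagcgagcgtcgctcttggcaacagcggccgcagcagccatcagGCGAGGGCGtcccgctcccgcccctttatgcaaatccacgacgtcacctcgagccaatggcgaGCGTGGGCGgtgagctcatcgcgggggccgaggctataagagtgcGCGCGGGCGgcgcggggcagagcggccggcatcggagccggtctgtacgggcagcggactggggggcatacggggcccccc
The Egr1 window lies at chr18:26736828-26737127 on the plus strand, the Btg2 window at chr13:48087641-48087940 on the minus strand and the Jund window at chr16:18769722-18770021 on the minus strand. Capitals in the Egr1 window mark a pair of CArG boxes, the site of serum response factor, at -105 to -96 and at -83 to -74 from the start. In the Btg2 window they mark TGACGTCA, the cyclic AMP response element that CREB and ATF factors bind, at -201 to -194, and the Egr motif GCGNGGGCG at -166 to -158. Jund held TGACGTCA at -221 to -214 and GCGNGGGCG at -139 to -131, -76 to -68 and -31 to -23. Both strands were searched and no match overlapped another.

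Among the 7 windows, TGACGTCA was in 3 (Jund, Btg2 and Ier2), against 1.83% of the 33469 promoters of this length in RefSeq. GCGNGGGCG was in 3 (Fosl2, Jund and Btg2), against 4.98%. A CArG box was in 1 (Egr1), against 1.64%. The motif TGANTCA, searched with any base at N and so wider than the AP-1 site, was in 0 of the 7 windows and in 7.33% of all promoters. It does not cover every site that AP-1 can bind. The windows of Fosb and Junb held none of the 4 motifs. These matches describe letters in the windows and are no evidence that a factor was bound.

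The levels are FPKM, fragment values scaled by transcript length and library size, as deposited. Each of the 9 genes had 1 transcript in the table. Over the 8 libraries Jund averaged 88.9 FPKM, Btg2 54.2 FPKM, Junb 45.8 FPKM and Jun 33.5 FPKM. Atf3 at 15.1 FPKM, Fos at 12.6 FPKM and Egr1 at 12.4 FPKM formed a middle group, above Fosl2 at 2.20 FPKM and Fosb at 1.49 FPKM. In rank by mean level, Jund stood 1102nd and Fosb 11310th among the 12784 symbols. Neighbours in this order overlapped in their ranges over the 8 libraries, except that the lowest Egr1 library, at 7.52 FPKM, was above the highest Fosl2 library, at 3.14 FPKM.

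The overexpressed gene checked the labels. Hectd3 was at 546.6, 915.3, 590.0 and 161.1 FPKM in HectD3 libraries 1 to 4, against 7.89, 7.86, 6.18 and 6.49 FPKM in LacZ libraries 1 to 4 (log2 fold change 5.86, standard error (SE) 0.44, adjusted p = 0.00292 from limma). HectD3 4 thus had the least of the overexpressed mRNA and HectD3 2 the most. The libraries also separated within each virus. A first principal component took 58.4% of the variance, and on it HectD3 4 was at 13.4, LacZ 1 at 40.8 and LacZ 2 at 27.1, and the other 5 libraries lay between -18.8 and -9.01. For the 9 genes, values without single libraries and for HectD3 1 to 3 against LacZ 3 and 4 are therefore given where they differ from the value in all libraries by over 1.5 times.

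With HectD3, 8 of the 9 immediate early genes had a higher mean than with LacZ, and Fosl2 a lower one, though Junb and Fosl2 were close to 0 and changed sign under some alternatives. Among all genes tested, 5588 had a higher and 6979 a lower mean, which is the background for the lists below as well. None of the 9 differed between the viruses at an adjusted p under 0.05 in limma. Over all 12567 genes tested, that share was 0.00796%, which is Hectd3 alone. At an unadjusted p under 0.05, 3 of the 9 were higher (Jund, Egr1 and Btg2), where 2.87% of all genes were higher, and 0 of the 9 were lower, where 4.28% were. An ordinary linear model with the library total as a covariate also had 0 of the 9 past the adjusted p. It had 1 higher past the unadjusted one, where 303 of all genes were higher. With the libraries rescaled to TPM, 1 of the 9 was higher past the unadjusted p, and over all genes 172 were higher and 734 lower, in place of 361 and 538. The count of 3 depended on the processing and on single libraries. It was 2 with a pseudocount of 0.1, median-ratio or quantile scaling, no trend, or library weights, where 291 to 769 of all genes were higher. Btg2 was near the threshold, at an unadjusted p of 0.0498 from limma. The count was 6 without HectD3 4, 4 without LacZ 4 and 1 without HectD3 1, HectD3 2, LacZ 1 or LacZ 2. Over all 12567 genes, 312 were higher without HectD3 4, 376 without LacZ 4 and 222 to 257 in the fits with a count of 1. The median difference of the 9 genes on the log2(FPKM + 1) scale was 0.53, against -0.02 over all genes tested, and it was 0.34 without HectD3 2.

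**Figure D1:**
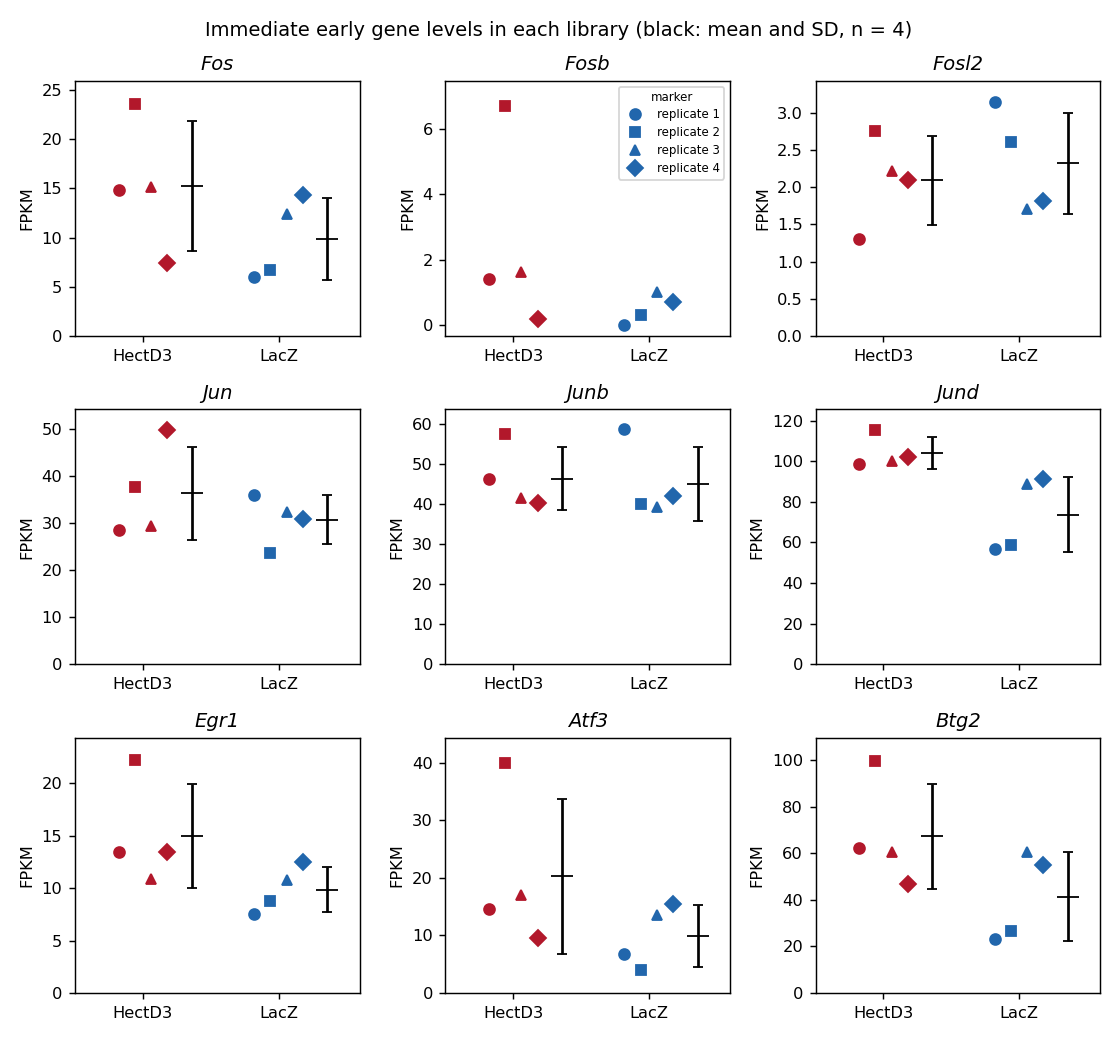
FPKM of each of the 9 genes (y axis, linear, 1 panel per gene) in the HectD3 libraries (red, left) and the LacZ libraries (blue, right), with marker shape for the replicate number and the mean and SD of 4 libraries in black (not drawn for Fosb, which was listed at 0 in LacZ 1). HectD3 2 is the highest of the 8 libraries in 6 panels, and the groups are apart in the Jund panel alone.

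Fos, the founding partner of AP-1 and a gene that is close to silent in many resting cells, was at 14.8, 23.6, 15.2 and 7.42 FPKM in HectD3 libraries 1 to 4, against 6.03, 6.68, 12.4 and 14.3 FPKM in LacZ libraries 1 to 4. HectD3 2 was the highest library and LacZ 1 the lowest, and HectD3 4 lay among the LacZ values. The means were 15.3 ± 6.60 FPKM in HectD3 libraries and 9.86 ± 4.13 FPKM in LacZ libraries (SD, n = 4 each), a ratio of 1.55. In log2 terms the fold change was 0.56 (SE 0.35, adjusted p = 0.724 from limma), with a 95% interval of -0.23 to 1.35. It was 0.33 without HectD3 2, 0.85 without HectD3 4 and 0.37 for HectD3 1 to 3 against LacZ 3 and 4. In the table Fos lies on chromosome 6 from 109300433 to 109303299, plus strand. No build for the coordinates of the table is given in the sources used here, and they were not compared with GRCr8.

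Fosb, a Fos family member known for the long-lived splice form ΔFosB, was the lowest of the 9 genes and the most uneven. HectD3 1 to 4 had 1.40, 6.71, 1.62 and 0.170 FPKM. In LacZ 2 to 4 it was at 0.300, 1.01 and 0.690 FPKM, and in LacZ 1 it was listed at 0. HectD3 2 held more Fosb than the other 7 libraries together, and HectD3 4 was below all LacZ libraries but LacZ 1. The difference on the log2(FPKM + 1) scale was 0.92 (SE 0.49, adjusted p = 0.723 from limma, 95% interval -0.19 to 2.03), and it was 0.42 without HectD3 2. Fosb lies on chromosome 1 from 80214691 to 80221417, minus strand, and its 1 transcript in the table does not separate ΔFosB from the full form.

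Fosl2, which encodes the Fos relative Fra-2, did not follow Fos and Fosb. Its levels were 1.31, 2.75, 2.21 and 2.10 FPKM in HectD3 1 to 4, against 3.14, 2.61, 1.70 and 1.81 FPKM in LacZ 1 to 4. LacZ 1 was the highest library here and HectD3 1 the lowest. Its log2 fold change was -0.10 (SE 0.19, adjusted p = 0.888 from limma, 95% interval -0.53 to 0.32), a sign that turned in 5 of 19 alternatives. Without single libraries it lay between -0.20 and 0.033, and for HectD3 1 to 3 against LacZ 3 and 4 it was 0.14. The gene lies on chromosome 6 from 25598936 to 25616995, minus strand.

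Jun, the Jun family member that activates transcription most strongly and a target of JNK, was at 28.5, 37.7, 29.3 and 49.7 FPKM in HectD3 1 to 4, against 36.0, 23.6, 32.3 and 30.9 FPKM in LacZ 1 to 4. HectD3 4, which was low for Fos and Fosb, was the highest library for Jun. The mean was 36.3 ± 9.86 FPKM in HectD3 libraries and 30.7 ± 5.19 FPKM in LacZ libraries (SD, n = 4 each), and the log2 fold change was 0.21 (SE 0.19, adjusted p = 0.757 from limma, 95% interval -0.21 to 0.64). Without HectD3 4 it was 0.055, without LacZ 2 it was 0.099, and for HectD3 1 to 3 against LacZ 3 and 4 it was 0.00071. Jun lies on chromosome 5 from 114011189 to 114014277, minus strand.

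Junb, which often restrains Jun within AP-1, was at 46.4, 57.6, 41.5 and 40.4 FPKM in HectD3 1 to 4, against 59.0, 40.2, 39.3 and 42.1 FPKM in LacZ 1 to 4. One library in each group stood above the others, HectD3 2 and LacZ 1. The means were 46.5 ± 7.87 FPKM in HectD3 libraries and 45.1 ± 9.29 FPKM in LacZ libraries (SD, n = 4 each). The log2 fold change of 0.05 (SE 0.15, adjusted p = 0.942 from limma, 95% interval -0.30 to 0.39) turned to -0.0014 with the libraries rescaled to TPM. Without single libraries it lay between -0.059 and 0.18, and for HectD3 1 to 3 against LacZ 3 and 4 it was 0.24. Junb lies on chromosome 19 from 26092974 to 26094756, minus strand.

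Jund is the Jun family member that is transcribed steadily in resting cells, and it was both the most abundant of the 9 genes and the 1 whose groups did not overlap. HectD3 1 to 4 had 98.6, 115, 100.0 and 102 FPKM. LacZ 1 to 4 had 56.7, 58.6, 88.5 and 91.0 FPKM. The HectD3 libraries lay close together, while LacZ 1 and LacZ 2 were well below LacZ 3 and LacZ 4. The mean was 104.0 ± 7.68 FPKM in HectD3 libraries and 73.7 ± 18.6 FPKM in LacZ libraries (SD, n = 4 each), a ratio of 1.41. The log2 fold change was 0.52 (SE 0.16, adjusted p = 0.591 from limma, 95% interval 0.16 to 0.89), and for HectD3 1 to 3 against LacZ 3 and 4 it was 0.22. Every HectD3 library was above every LacZ library in 2.44% of all genes tested, and below in 2.81%, and among the 9 genes 1 was above and 0 were below. The first count was 4 without HectD3 4, with Fos, Fosb and Btg2 added to Jund. Groups of fewer libraries are apart more easily, and the share of all genes was not counted at that setting. Jund lies on chromosome 16 from 20485029 to 20486707, minus strand.

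Egr1, the early growth response factor, was at 13.5, 22.2, 10.8 and 13.5 FPKM in HectD3 1 to 4, against 7.52, 8.73, 10.7 and 12.5 FPKM in LacZ 1 to 4. HectD3 2 was again the highest library, and HectD3 3 was level with LacZ 3. The means were 15.0 ± 4.97 FPKM in HectD3 libraries and 9.86 ± 2.19 FPKM in LacZ libraries (SD, n = 4 each), a ratio of 1.52. Fitted over all 8 libraries, the log2 fold change was 0.53 (SE 0.22, adjusted p = 0.682 from limma, 95% interval 0.046 to 1.02). It was 0.34 without HectD3 2, and 0.33 for HectD3 1 to 3 against LacZ 3 and 4. Egr1 lies on chromosome 18 from 27657628 to 27661429, plus strand.

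Atf3, a bZIP factor of the stress response that pairs with Jun proteins, had the largest difference of the 9 on the log2(FPKM + 1) scale. Fosb was close to it at 0.92 and had a larger ratio of means, 4.95. With a pseudocount of 0.1 the difference was 1.77 for Fosb and 1.01 for Atf3. Levels of Atf3 were 14.5, 40.0, 16.9 and 9.55 FPKM in HectD3 1 to 4, against 6.69, 3.99, 13.6 and 15.4 FPKM in LacZ 1 to 4. HectD3 2 alone was above 20 FPKM, and the other HectD3 libraries lay on both sides of LacZ 3 and LacZ 4. The means were 20.3 ± 13.5 FPKM in HectD3 libraries and 9.91 ± 5.45 FPKM in LacZ libraries (SD, n = 4 each), a ratio of 2.04. The log2 fold change of 0.93 (SE 0.47, adjusted p = 0.719 from limma, 95% interval -0.13 to 1.99) was 0.55 without HectD3 2, 0.60 without LacZ 2 and 0.54 for HectD3 1 to 3 against LacZ 3 and 4. Atf3 lies on chromosome 13 from 109817895 to 109849632, minus strand.

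Btg2, an antiproliferative gene that p53 and growth factors induce and whose protein promotes mRNA deadenylation, was at 62.2, 99.4, 60.6 and 46.6 FPKM in HectD3 1 to 4, against 23.2, 26.7, 60.3 and 54.8 FPKM in LacZ 1 to 4. LacZ 1 and LacZ 2 stood below all other libraries and HectD3 2 above all. The means were 67.2 ± 22.6 FPKM in HectD3 libraries and 41.3 ± 19.0 FPKM in LacZ libraries (SD, n = 4 each), a ratio of 1.63. The log2 fold change was 0.75 (SE 0.33, adjusted p = 0.698 from limma, 95% interval 0.00069 to 1.51). It was 0.55 without HectD3 2, and 0.32 for HectD3 1 to 3 against LacZ 3 and 4. Btg2 lies on chromosome 13 from 50913180 to 50916982, minus strand.

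**Figure D2:**
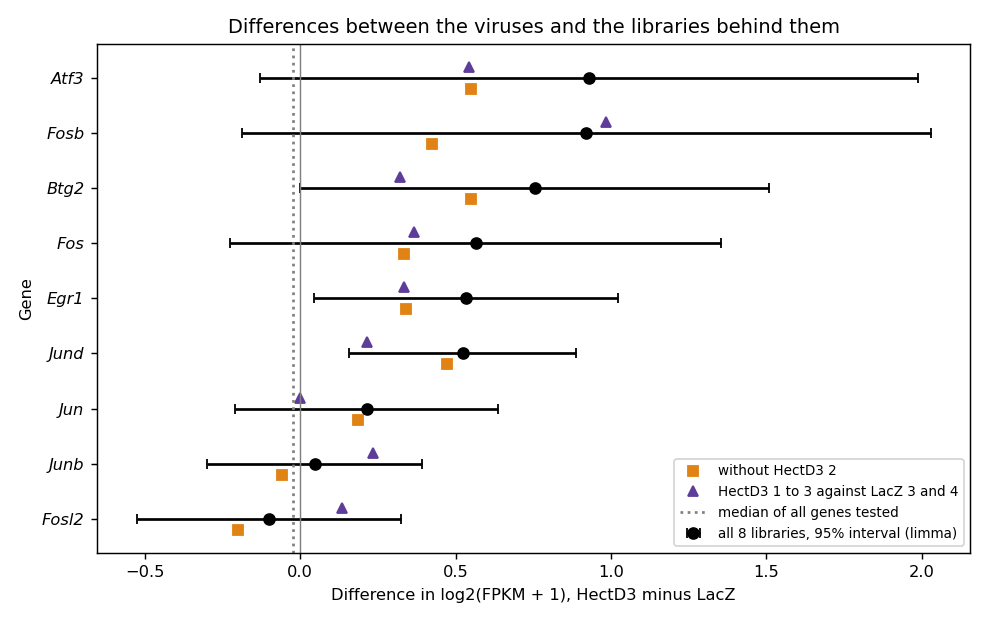
Difference in log2(FPKM + 1), HectD3 minus LacZ (x axis), for each of the 9 genes (y axis), with circles for all 8 libraries and bars for the 95% interval from limma, squares without HectD3 2 and triangles for HectD3 1 to 3 against LacZ 3 and 4. The dotted line is the median of all genes tested (-0.02), and the intervals of Jund, Egr1 and Btg2 lie above 0, that of Btg2 only from 0.00069.

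The spread within each virus was wider for these genes than for genes at large. The median SD of log2(FPKM + 1) within the HectD3 group was 0.41 for the 9 genes, against 0.16 over all genes tested, and within the LacZ group it was 0.36, against 0.18. Jund in the HectD3 group was the exception, with an SD of 0.10. Fosb had an SD of 1.12 in the HectD3 group and Atf3 had 0.83 in the HectD3 group and 0.81 in the LacZ group. Without HectD3 2, the median SD of the HectD3 group was 0.26 for the 9 genes, against 0.17 over all genes.

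Much of that spread in the HectD3 group lay in HectD3 2. It was the highest of the 8 libraries for 6 of the 9 genes (Fos, Fosb, Jund, Egr1, Atf3 and Btg2), and for 9.64% of all genes tested. It was at least 1.5 times the median of the other HectD3 libraries for 5 of the 9, and for 3.59% of all genes. That ratio was 4.78 for Fosb, 2.76 for Atf3, 1.65 for Egr1, 1.64 for Btg2 and 1.59 for Fos, and it ran from 1.15 to 1.39 for Jund, Jun, Fosl2 and Junb. The Fos, Fosb and Atf3 levels of the HectD3 libraries ran in the order of their Hectd3 levels, with HectD3 2 first, then HectD3 3, HectD3 1 and HectD3 4. That order held for 3 of the 9 genes and for 3.74% of all genes tested. In the LacZ group, LacZ 3 and LacZ 4 were both above LacZ 1 and LacZ 2 for the same 6 genes that peaked in HectD3 2, and for 23.5% of all genes. For Fosl2 the LacZ libraries ran the other way. These library patterns were picked after the values were seen and are descriptions.

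Each gene's log2(FPKM + 1) was also set against its own mean over the 8 libraries. The median deviation of the 9 genes was 0.19, 0.85, 0.21 and -0.09 in HectD3 1 to 4, against -0.60, -0.55, 0.01 and 0.07 in LacZ 1 to 4. Over all genes tested the same medians lay between -0.06 and 0.08. All 9 genes were above their own mean in HectD3 2 and 1 of 9 was in LacZ 2. The medians of LacZ 3 and LacZ 4 lay between those of HectD3 4 and HectD3 1, and well above those of LacZ 1 and LacZ 2.

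**Figure D3:**
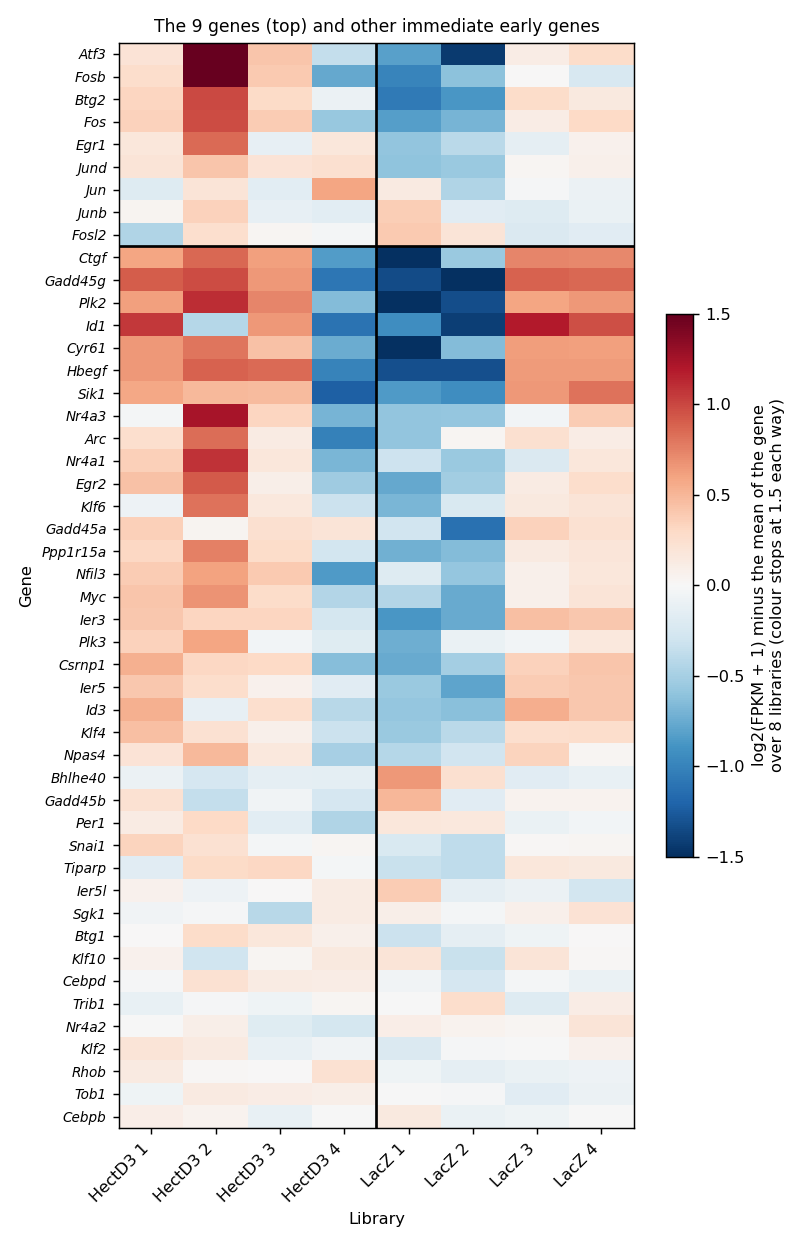
Deviation of log2(FPKM + 1) from the mean of each gene over the 8 libraries (colour, red above and blue below, stopping at 1.5 each way), with libraries across (HectD3 left of the line, LacZ right) and genes down, the 9 genes on top and 39 other immediate early genes below. HectD3 2 is red and LacZ 1 and LacZ 2 are blue for most of the upper rows of both blocks, and HectD3 4 is blue for many of the lower block.

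Other immediate early genes were read as a list of 42 names, of which 39 were tested. With HectD3, 32 had a higher and 7 a lower mean (median log2 fold change 0.22), and 0 passed the adjusted p in limma. At an unadjusted p under 0.05, 3 were higher, namely Btg1, Rhob and Cebpd, and 0 were lower, where 2.87% of all genes tested were higher and 4.28% lower. Btg1, the closest relative of Btg2, was at 259, 311, 288 and 270 FPKM in HectD3 1 to 4, against 205, 233, 246 and 257 FPKM in LacZ 1 to 4, so the groups did not overlap (log2 fold change 0.26, adjusted p = 0.662 from limma). Rhob, a small GTPase of the cytoskeleton, was at 57.8, 53.1, 52.5 and 61.6 FPKM in HectD3 1 to 4, against 50.2, 47.7, 49.0 and 49.6 FPKM in LacZ 1 to 4 (log2 fold change 0.19, adjusted p = 0.677 from limma). Bhlhe40, a repressor of the circadian clock, and Nr4a2, an orphan nuclear receptor, had the lowest p among those with a lower mean, with log2 fold changes of -0.31 and -0.18 and adjusted p of 0.723 and 0.724 from limma. Bhlhe40 was at -0.14 without LacZ 1 and at -0.016 for HectD3 1 to 3 against LacZ 3 and 4.

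The library pattern of Atf3 and Fosb was also found in this list. HectD3 2 was the highest of the 8 libraries for 19 of the 39 genes, against 9.64% of all genes tested, and LacZ 3 and LacZ 4 were both above LacZ 1 and LacZ 2 for 27, against 23.5%. HectD3 2 was at least 1.5 times the median of the other HectD3 libraries for 7 (Nr4a3, Arc, Egr2, Nr4a1, Klf6, Plk3 and Npas4), against 3.59% of all genes. Over the 8 libraries Npas4 was at 0.138 to 1.25 FPKM, Arc at 0 to 2.60 FPKM and Nr4a3 at 0.194 to 3.58 FPKM. At such low levels these ratios are uncertain. The summed level of the list was 3039, 3370, 2937 and 1584 FPKM in HectD3 1 to 4, against 1148, 1478, 3085 and 3082 FPKM in LacZ 1 to 4. HectD3 4, LacZ 1 and LacZ 2 held the least, and each of the other 5 libraries held far more. A large part of each high sum was Ctgf, with 1122, 1356, 1141 and 415 FPKM in HectD3 1 to 4. In LacZ 1 to 4 Ctgf was at 171, 504, 1233 and 1225 FPKM.

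Other AP-1 and bZIP partners were split evenly in direction. Of 12 tested among 13 names, 6 had a higher and 6 a lower mean with HectD3 (median log2 fold change 0.05). At an unadjusted p under 0.05, 0 were higher and 0 lower, where 2.87% of all genes were higher and 4.28% lower. Maff, a small Maf protein, was at 13.9 ± 3.77 FPKM in HectD3 libraries and 9.42 ± 4.68 FPKM in LacZ libraries (SD, n = 4 each, log2 fold change 0.64, adjusted p = 0.724 from limma), and its fold change was 0.22 without LacZ 1. Fosl1, which encodes Fra-1, was at 2.81, 3.24, 2.04 and 0.822 FPKM in HectD3 1 to 4, against 0.625, 1.08, 2.21 and 1.31 FPKM in LacZ 1 to 4, so it too was low in HectD3 4, LacZ 1 and LacZ 2. Its log2 fold change of 0.46 was 0.30 without HectD3 2, 0.31 without LacZ 1 and 0.71 without HectD3 4. Maf, a large Maf factor, was at 1.40, 2.26, 2.26 and 1.91 FPKM in HectD3 1 to 4, against 2.67, 2.44, 2.34 and 2.50 FPKM in LacZ 1 to 4, with no overlap (log2 fold change -0.25, adjusted p = 0.719 from limma, and -0.15 without HectD3 1).

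Upstream regulators were read as 2 lists. Of 13 SRF, TCF and CREB regulators tested among 14 names, 7 had a higher and 6 a lower mean, with a median log2 fold change of 0.03, and 0 passed the adjusted p in limma, with 0 higher and 2 lower past the unadjusted one, where 4.28% of all genes were lower. Srf, the factor that binds CArG boxes such as those of the Egr1 window, was at 79.6, 98.5, 79.0 and 46.5 FPKM in HectD3 1 to 4, against 35.8, 40.5, 79.1 and 79.0 FPKM in LacZ 1 to 4. It was highest in HectD3 2 and lowest in LacZ 1, LacZ 2 and HectD3 4, and between the viruses its log2 fold change was 0.41 (adjusted p = 0.736 from limma). Leaving out LacZ 1 made this 0.21, HectD3 2 or LacZ 2 0.27 and HectD3 4 0.63, and it was 0.11 for HectD3 1 to 3 against LacZ 3 and 4. Fhl2, a LIM protein of the sarcomere that also binds SRF, was at 231, 236, 234 and 245 FPKM in HectD3 1 to 4, against 329, 301, 282 and 285 FPKM in LacZ 1 to 4. These groups were apart and each was tight (log2 fold change -0.34, SE 0.07), yet the adjusted p was 0.299 from limma. Creb1, which binds TGACGTCA, was at 5.29 ± 0.986 FPKM in HectD3 libraries and 7.21 ± 0.962 FPKM in LacZ libraries (SD, n = 4 each, log2 fold change -0.39, adjusted p = 0.671 from limma). Elk3, a ternary complex factor, had a log2 fold change of 0.19 (adjusted p = 0.719 from limma).

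The MAP kinases that signal to these genes were split evenly too. Of 22 tested among 26 names, 11 had a higher and 11 a lower mean, with a median log2 fold change of -0.01. At an unadjusted p under 0.05, 0 were higher and 0 lower, where 2.87% of all genes were higher and 4.28% lower. The named kinases differed by small amounts that hung on single libraries. Mapk3, which encodes ERK1, was at 64.1 ± 9.45 FPKM in HectD3 libraries and 59.2 ± 9.01 FPKM in LacZ libraries, and Map2k2, which encodes MEK2, at 86.4 ± 3.85 FPKM in HectD3 libraries and 81.6 ± 3.71 FPKM in LacZ libraries (SD, n = 4 each). The log2 fold change of Mapk3 was 0.11, and 0.033 without HectD3 4, and that of Map2k2 was 0.08, 0.054 without HectD3 1 and 0.048 without LacZ 1. Mapk9, which encodes JNK2, had a log2 fold change of -0.19 (adjusted p = 0.723 from limma), and -0.13 without LacZ 2. Mapk7, which encodes ERK5, had a log2 fold change of -0.13 (adjusted p = 0.761 from limma), which was -0.20 without HectD3 1, -0.051 without HectD3 4, and turned to 0.034 in the linear model with the library total. The protein and phosphorylation levels of these kinases were not measured by RNA-seq.

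Among the feedback inhibitors, which the same signals induce and which shut them off, 20 of 20 were tested, with a higher mean in 13, a lower mean in 7 and a median log2 fold change of 0.03. None passed the adjusted p in limma, and 1, Dusp10, was lower past the unadjusted one, where 4.28% of all genes were. Dusp10, a phosphatase of p38 and JNK, was at 7.63, 6.27, 6.77 and 7.82 FPKM in HectD3 1 to 4, against 15.1, 10.0, 9.84 and 8.24 FPKM in LacZ 1 to 4 (log2 fold change -0.51, adjusted p = 0.611 from limma), with no overlap. Dusp6, a cytoplasmic ERK phosphatase, was at 19.7, 24.0, 18.2 and 13.3 FPKM in HectD3 1 to 4, against 8.14, 10.4, 17.2 and 19.1 FPKM in LacZ 1 to 4, and so had the library pattern of Btg2 (log2 fold change 0.48, adjusted p = 0.723 from limma, and 0.27 without LacZ 1). Dusp16 had a log2 fold change of 0.35 (adjusted p = 0.723) and Dusp5, a nuclear ERK phosphatase, one of -0.33 (adjusted p = 0.708), both from limma. For HectD3 1 to 3 against LacZ 3 and 4, Dusp6 was at 0.17, Dusp16 at 0.20 and Dusp5 at -0.028.

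Genes known as AP-1 or Egr1 targets numbered 22 tested among 26 names, of which 16 had a higher and 6 a lower mean with HectD3. Their median log2 fold change was 0.12, 0 passed the adjusted p in limma, and 0 were higher and 1 was lower past the unadjusted one, against 2.87% and 4.28% of all genes. That gene was Lox, the enzyme that cross-links collagen, at 12.3 ± 1.16 FPKM in HectD3 libraries and 15.2 ± 2.37 FPKM in LacZ libraries (SD, n = 4 each, log2 fold change -0.28, adjusted p = 0.698 from limma). Tgfb1, the growth factor, was at 44.0 ± 4.03 FPKM in HectD3 libraries and 38.8 ± 3.81 FPKM in LacZ libraries (SD, n = 4 each, log2 fold change 0.18, adjusted p = 0.723 from limma, and 0.11 without LacZ 1). Vegfa, the endothelial growth factor, had a log2 fold change of -0.26 (adjusted p = 0.719 from limma), which was -0.15 without LacZ 1 and -0.062 for HectD3 1 to 3 against LacZ 3 and 4. Plaur, the urokinase receptor, had one of 0.45 (adjusted p = 0.719 from limma), which was -0.93 when its most abundant transcript was taken in place of the sum, so its direction is uncertain.

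For the 3 genes with the widest range, the nearest profiles over the 8 libraries were sought among 8754 genes whose mean was 5 FPKM or more, the 9 genes themselves left out. Likeness was the root mean square difference of log2(FPKM + 1), each gene set against its own mean. Nearest to Atf3 among them were Dusp8 (0.35), Bok (0.41) and Ppp1r15a (0.42), where the median gene was at 0.87. For Fosb they were Arid5a (0.39), Nr4a1 (0.43) and Klf5 (0.45), with a median of 0.89, and for Btg2 they were Ppp1r15a (0.19), Dusp6 (0.21) and Cnksr3 (0.22), with a median of 0.66. Some of the 9 genes were as near or nearer, namely Btg2 (0.34), Fos (0.35) and Fosb (0.40) to Atf3, Atf3 (0.40) and Fos (0.41) to Fosb, and Fos (0.22) to Btg2. Nr4a1, an orphan nuclear receptor and itself an immediate early gene, was at 21.5, 36.2, 18.8 and 9.91 FPKM in HectD3 1 to 4, against 13.2, 10.9, 14.1 and 18.7 FPKM in LacZ 1 to 4. Ppp1r15a, which encodes the stress-induced phosphatase subunit GADD34, was at 55.4, 75.7, 54.0 and 36.5 FPKM in HectD3 1 to 4, against 26.7, 28.1, 48.9 and 50.6 FPKM in LacZ 1 to 4. Both peaked in HectD3 2, as Atf3, Fosb and Btg2 did. The points of these profiles share the same libraries, and nothing follows from likeness about shared control.

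Cell type markers were summed in each library beside these results. The 8 cardiomyocyte markers held 11533 to 13271 FPKM with HectD3 and 11449 to 12555 FPKM with LacZ, and the 7 fibroblast markers in the table (of 8) held 1719 to 1952 FPKM with HectD3 and 1735 to 1982 FPKM with LacZ. The 5 endothelial markers in the table (of 6) held 80.9 to 98.0 FPKM with HectD3 and 71.6 to 89.9 FPKM with LacZ. The 5 macrophage and leukocyte markers in the table (of 6) summed to 85.7, 81.6, 66.0 and 77.9 FPKM in HectD3 1 to 4. In LacZ 1 to 4 they summed to 61.0, 63.9, 77.9 and 80.4 FPKM. LacZ 3 and LacZ 4 were both above LacZ 1 and LacZ 2 for all 5, and for 23.5% of all genes tested. The 4 smooth muscle markers (Myh11, Acta2, Tagln and Cnn1) summed to 3210, 2572, 2731 and 1893 FPKM in HectD3 1 to 4, against 1566, 2152, 3637 and 3248 FPKM in LacZ 1 to 4. That sum is mostly Acta2 and Tagln. Acta2, Tagln and Cnn1 were each lowest in LacZ 1, HectD3 4 and LacZ 2, the libraries low in Fos and Fosb, but HectD3 2 was not their highest. Myh11, the smooth muscle myosin, did not share this order, at 22.9, 22.4, 17.6 and 15.8 FPKM in HectD3 1 to 4, against 23.7, 34.8, 23.1 and 23.2 FPKM in LacZ 1 to 4, with no overlap (log2 fold change -0.39, adjusted p = 0.689 from limma). Sums also cover other markers that were past an unadjusted p of 0.05, though none passed the adjusted one. Myh6, the cardiac myosin heavy chain, was at 192 to 201 FPKM with HectD3 and 207 to 240 FPKM with LacZ, endothelial Emcn at 29.5 to 37.9 FPKM with HectD3 and 25.1 to 29.4 FPKM with LacZ, and Adgre1 of macrophages at 11.1 to 13.4 FPKM with HectD3 and 8.97 to 11.6 FPKM with LacZ. The part of any of these markers in the results was not tested. In bulk RNA a smaller share of a cell type and less RNA per cell of that type cannot be told apart.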

How the data were processed

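RNA-seq was measured in 8 libraries of polyadenylated RNA, prepared strand-specifically (4 per virus) and grouped by the sample labels. The authors trimmed reads with cutadapt, aligned them with HISAT2, assembled abundances with StringTie and derived FPKM in Ballgown. The sources used here give neither the versions of these tools nor the genome build and annotation release. FPKM for 15976 transcripts, with no counts, were deposited, so the depth of each library is not known and error from counting cannot be stated. The values sum to 554960 to 595172 in HectD3 libraries and to 546642 to 563051 in LacZ libraries.

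FPKM was summed over transcripts of each symbol (several gene IDs in 96 of 12784 symbols). The 12567 genes averaging 0.5 FPKM or more were tested on log2(FPKM + 1) with limma 3.58.1 (R 4.3.3, trend option, two-sided, HectD3 minus LacZ), and p was adjusted over them by Benjamini-Hochberg. This scale understates changes of low genes such as Fosb. Every log2 fold change given is on it. The test was checked on simulated data with independent normal noise in each gene and library. Those data lack the shared differences between libraries seen here. Tables and figures used Python 3.11.15 with pandas 2.3.3, numpy 2.4.6 and matplotlib 3.10.9.

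The 9 genes, the 12 related and marker lists, the tests and the alternatives were chosen with earlier results of these data known. Of 177 list names, 158 matched the table, directly or through RefSeq synonyms. Genes named in the text were the 10 chosen, Hectd3, the 2 of each related list with the smallest p each way at a mean of at least 1 FPKM, and the 3 nearest profiles of the 3 widest-ranging genes. A marker list and a gene that the rule named are not reported here. Cebpd, Ctgf, the single markers and the 7 genes with HectD3 2 at least 1.5 times the median of the other HectD3 libraries were named after their values were seen. Alternatives were a pseudocount of 0.1, no filter, a minimum mean of 5 FPKM, TPM, median-ratio and quantile scaling, the most abundant transcript, limma without trend or with library weights, a linear model with the library total, a replicate block, HectD3 1 to 3 against LacZ 3 and 4, and leaving out each library.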

Additional observations from a re-analysis of the deposited data

Results flagged for a closer look

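Junb in LacZ 1, at 59.0 FPKM, stood apart from the other LacZ libraries, which lay between 39.3 and 42.1 FPKM, and the gap was 0.861 of the range of the group, past the critical value of Dixon for 4 values at 95%. Without LacZ 1 the log2 fold change of Junb was 0.18 in place of 0.05. Tgfb1 in LacZ 1, at 33.1 FPKM, stood below the other LacZ libraries, which lay between 40.4 and 41.3 FPKM, with a gap of 0.887 of the range. LacZ 1 was also the far end of the first principal component. These were 2 of 68 groups checked over 34 genes, where chance marks about 1 group in 20.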

How the results depend on the processing

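None of the 9 genes passed an adjusted p of 0.05 in limma or in any of the 20 alternatives, and their median log2 fold change stayed positive, between 0.32 and 0.70 (0.34 to 0.65 when single libraries were left out). The number of genes whose groups did not overlap was 1 in all libraries, 1 to 4 when single libraries were left out, and 4 for HectD3 1 to 3 against LacZ 3 and 4. Groups of fewer libraries are apart more easily. The share of all genes was not counted at those settings, so the higher counts show no clearer separation. Signs turned for genes near 0. Fosl2 was at 0.043 in the linear model with the library total, 0.10 with library weights, 0.14 for HectD3 1 to 3 against LacZ 3 and 4, and -0.20 to 0.033 when single libraries were left out. Junb was at -0.0014 with TPM and -0.059 to 0.18 when single libraries were left out. Mapk7 turned to 0.034 in the linear model, and Plaur to -0.93 with the most abundant transcript. Of 475 values of the other named genes under the alternatives, 473 kept direction and side of the threshold. Fosb and Fosl2 dropped out at a mean of at least 5 FPKM. At an unadjusted p under 0.05, 538 genes were lower and 361 higher, 59.8% lower, which became 734 and 172 (81.0% lower) with TPM. It was 464 and 449 with quantile normalization, and more genes were higher than lower with library weights (681 lower, 769 higher), in the linear model (254 and 303) and for HectD3 1 to 3 against LacZ 3 and 4 (542 and 645). With a replicate block the median of the 9 genes stayed at 0.53, 1 of the 9 was higher past the unadjusted p, and 450 genes were lower and 167 higher. Deviations from the group means correlated at -0.37, -0.01, 0.34 and -0.61 between libraries with the same number. With 4 libraries per group and a large first principal component, these values cannot decide whether the numbers pair the samples. Unknown depth limits what can be said of Fosb and Fosl2.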
